A study of Homo sapiens with 6 samples.

Results

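Pregnancy-specific glycoproteins (PSGs) were followed in ES2, an established human ovarian cancer cell line that the labels describe as epithelial. The 4 genes taken by symbol, PSG2, PSG7, PSG8 and PSG11, were all found among the 771 named entries of the deposited tables, which hold 1113 entries in all. The study measured mRNA in 6 ES2 libraries after antisense oligonucleotides (ASOs), synthetic strands that base-pair with an RNA and can lead to its cleavage. In 3 libraries the cells had received the control ASO (genotype Control in the labels). In the other 3 they had received the ASO targeting RUNX1-IT1, a non-coding RNA of the RUNX1 locus (genotype RUNX1-IT1 knockdown). All cells were kept in the same serum-containing medium. No dose, time or number of separate cultures is given, so p-values measure only the spread between these libraries, which may be technical. The tables used here do not list RUNX1-IT1, and the knockdown itself is not analysed here.

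PSGs are secreted glycoproteins of the immunoglobulin superfamily and belong to the carcinoembryonic antigen (CEA) family together with the CEACAM proteins. The trophoblast of the placenta makes them in large amounts and releases them into maternal blood, and several PSGs bind integrins or activate latent TGF-beta. Their genes lie next to each other on the long arm of chromosome 19 and are so alike that sequencing reads can be shared between them. PSG2, PSG7, PSG8 and PSG11 are 4 such genes. How the single PSG proteins differ in what they do is poorly known.

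In GENCODE release 29 on GRCh38, the build named in the submitters' processing notes, the PSG cluster has 11 genes, all on the minus strand, within chr19:42721638-43269530, a length of 548 kb. PSG8 lies at chr19:42752686-42855691, PSG7 at chr19:42924132-42937178, PSG11 at chr19:43007656-43026512 and PSG2 at chr19:43064211-43083045. The tables list 4 of the 11, and the other 7 (PSG1, PSG3, PSG4, PSG5, PSG6, PSG9 and the pseudogene PSG10P) are not listed. RefSeq also gives the symbol PSG11 as an older name of PSG9. PSG11 was read here as the gene that now bears that symbol, but the annotation behind the tables is unknown, so its values could belong to PSG9. PSG7, PSG11 and PSG2 follow each other along the chromosome with no other PSG gene between them, while PSG10P, PSG1 and PSG6 lie between PSG8 and PSG7 or overlap PSG8.

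**Figure D1:**
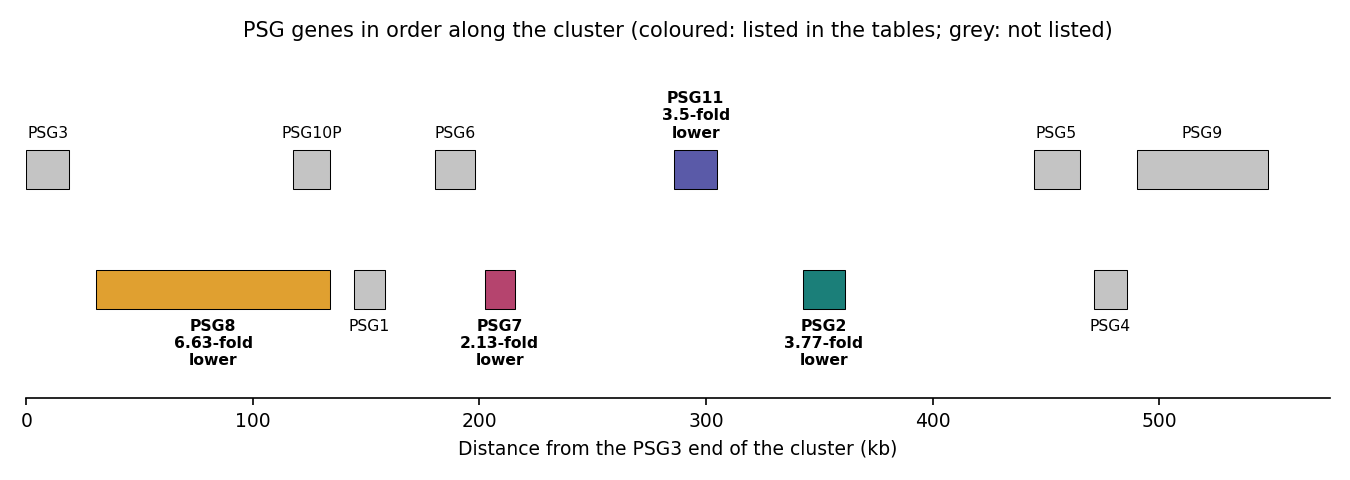
The 11 PSG genes along the cluster, drawn as bars from annotated start to end, with the distance from the PSG3 end in kb on the horizontal axis and the vertical position used only to separate labels. The 4 coloured genes are listed in the tables, with their fold difference between group means, and the 7 grey genes are not listed. For PSG7 the direction was opposite (0.31 on the log2 scale, limma, adjusted p = 0.0702) after rescaling to equal totals. That rescaling moved the median of all tested entries to -0.06.

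How well reads can tell the members apart bears on each value, so the coding sequences were compared. Each member was represented by its GENCODE transcript with the longest complete coding sequence, of 1005 bases in PSG2 and PSG11 and of 1278 bases in PSG7 and PSG8. Over aligned coding bases, identity was 94.8% between PSG7 and PSG8 and 94.1% between PSG2 and PSG11, the closest pairs. The remaining 4 pairs lay between 90.5 and 91.5%. Of the 999 columns aligned in all 4 genes, 140 differed in at least 1 gene.

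Stretches of 100 coding bases were compared only where all 4 genes align without gaps and each lies within a single exon. Where stretches tied, the first along the alignment was taken. The stretch with the fewest differences shows how alike the genes can be. No 2 of the 4 genes are identical over this stretch. It lies in exon 2 at coding bases 130 to 229 of all 4 genes, at chr19:43081082-43081181 in PSG2, chr19:42935605-42935704 in PSG7, chr19:42764117-42764216 in PSG8 and chr19:43024892-43024991 in PSG11. The sequences are from the GENCODE transcripts, 5′ to 3′ on the minus strand, with capitals at the 3 positions where the genes are not all the same:
PSG2: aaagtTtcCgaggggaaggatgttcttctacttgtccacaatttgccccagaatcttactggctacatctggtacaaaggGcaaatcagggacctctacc
PSG7: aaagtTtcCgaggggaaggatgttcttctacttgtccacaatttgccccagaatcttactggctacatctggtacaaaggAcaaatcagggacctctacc
PSG8: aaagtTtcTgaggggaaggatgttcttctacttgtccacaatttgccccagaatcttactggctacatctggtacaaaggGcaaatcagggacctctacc
PSG11: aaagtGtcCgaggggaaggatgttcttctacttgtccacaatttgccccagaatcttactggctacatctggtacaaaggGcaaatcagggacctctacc

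The other 7 PSG genes were not in the alignment, so differences from them were not sought. The stretch of 100 bases with the most differences among the 4 members was sought in the same way. It covers coding bases 710 to 809 in exon 4 of PSG2 (chr19:43071855-43071954) and PSG11 (chr19:43015271-43015370), and coding bases 989 to 1088 in exon 5 of PSG7 (chr19:42925928-42926027) and PSG8 (chr19:42754488-42754587). Capitals mark the 20 positions that differ between at least 2 of the genes:
PSG2: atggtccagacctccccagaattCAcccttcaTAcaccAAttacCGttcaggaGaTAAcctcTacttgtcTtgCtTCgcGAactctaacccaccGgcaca
PSG7: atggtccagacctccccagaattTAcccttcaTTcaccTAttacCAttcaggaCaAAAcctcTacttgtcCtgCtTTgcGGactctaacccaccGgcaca
PSG8: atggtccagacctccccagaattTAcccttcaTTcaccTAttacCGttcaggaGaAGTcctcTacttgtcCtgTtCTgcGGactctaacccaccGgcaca
PSG11: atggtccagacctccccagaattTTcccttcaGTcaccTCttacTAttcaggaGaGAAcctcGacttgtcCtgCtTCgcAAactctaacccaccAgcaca

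Counting every stretch of 100 bases along these transcripts, 88.3% of those of PSG2, 95.6% of PSG7, 86.7% of PSG8 and 91.3% of PSG11 occur in no annotated transcript of any other gene. At 50 bases the shares were 70.8, 81.2, 59.8 and 74.2% in the same order, and at 150 bases they were 97.3, 99.1, 97.1 and 97.4%. PSG8 thus has the smallest share of its own at each of the 3 lengths, and PSG7 the largest. At 100 bases PSG2 and PSG11 share most with each other, 128 stretches, or 8.9% of those of PSG2 and 8.7% of those of PSG11. PSG8 shares most with PSG1 (9.8%), which is not listed, and PSG7 also shares most with PSG1 (3.9%). The sources used here give neither the read length nor the handling of reads that fit several genes, so part of each value may come from another PSG gene.

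**Figure D2:**
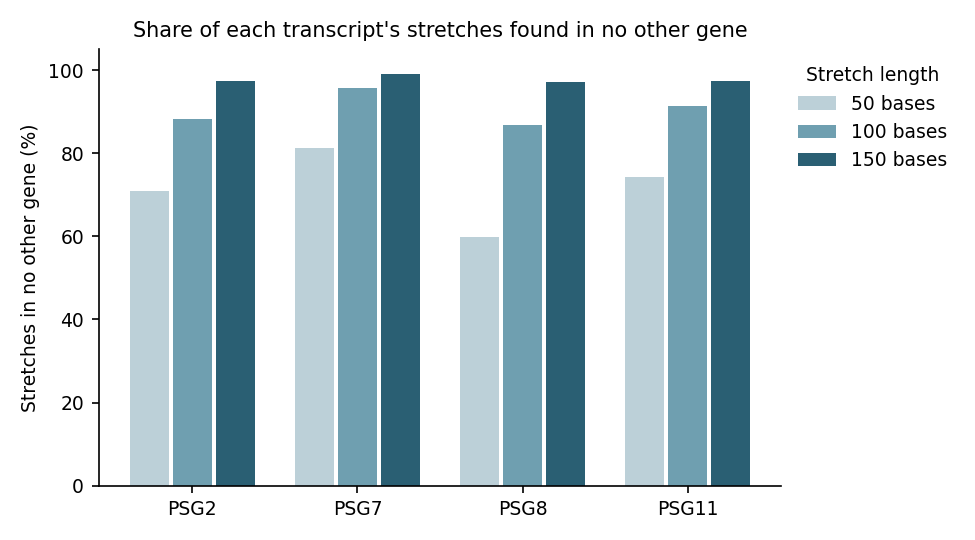
Share of all stretches of 50, 100 or 150 bases in each member's annotated transcript that occur in no transcript of another gene (vertical axis, percent), with 1 group of bars per gene. The share rises with length for all 4 genes, from 59.8% at 50 bases for PSG8, the lowest bar, to 99.1% at 150 bases for PSG7, the highest.

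The deposited values are in CPM, a read count divided by the library total and scaled up by a constant. Low values in each library are whole multiples of 1 step, of 0.04712 to 0.05858 CPM. If a step is 1 read, the libraries held 17100000 to 21200000 reads. Every RUNX1-IT1 ASO library held values of 1 step, whereas the lowest value with the control ASO was 2, 5 and 2 steps (replicates 1, 2 and 3), which makes its read numbers less certain. The listed entries took up 1.02 to 1.11% of the CPM scale with the control ASO and 0.363 to 0.389% with the RUNX1-IT1 ASO. Of the 768 named entries with a mean above 0 in both groups, 749 were lower and 19 higher under the RUNX1-IT1 ASO, and the smallest fold in either direction was 1.99. No entry among these 768 has a smaller fold, so a lower level of a listed gene is not independent evidence of a change. Of 20 ovarian tumour and epithelial markers only PAX8 and ESR1 are listed, so the cell type could not be checked on the tables used here.

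All 4 PSG genes had lower levels in the RUNX1-IT1 ASO libraries than in the control ASO libraries, by 2.13-fold for PSG7, 3.50-fold for PSG11, 3.77-fold for PSG2 and 6.63-fold for PSG8, though PSG7 lay above the listed entries as a whole (0.31 on the log2 scale) once libraries were rescaled to equal totals. Added together, the 4 genes stood at 10.9 ± 0.549 CPM in the control ASO libraries and 3.66 ± 0.152 CPM in the RUNX1-IT1 ASO libraries (SD, n = 3 each), a 2.97-fold difference. Without PSG7, the sum of the other 3 genes was 4.09-fold lower. In bulk RNA, fewer cells with a transcript and less transcript per cell cannot be told apart.

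PSG2 stood at 3.09, 3.01 and 3.06 CPM in control ASO replicates 1, 2 and 3. With the RUNX1-IT1 ASO it stood at 0.749, 0.86 and 0.82 CPM in replicates 1, 2 and 3. The control values lay within a coefficient of variation of 1.30%, and the lowest of them was 3.50 times the highest RUNX1-IT1 ASO value. They were 62, 52 and 65 steps in replicates 1, 2 and 3. If a step is 1 read, counting error alone gave an exact binomial 95% interval of 2.7 to 5.38 for the fold between groups. The small spread of the controls is therefore not a measure of precision. The group means were 3.05 ± 0.0397 and 0.81 ± 0.0562 CPM (SD, n = 3 each). In log2(CPM + 1), where the added 1 shrinks differences of low genes, PSG2 fell by 1.16 ± 0.12 (SE, limma, adjusted p = 7.36e-07).

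PSG7, with the highest CPM of the 4 genes, stood at 4.34, 4.40 and 4.67 CPM in control ASO replicates 1, 2 and 3. It stood at 2.09, 2.26 and 1.93 CPM in the RUNX1-IT1 ASO replicates in the same order. The groups did not overlap, and the lowest control value was 1.92 times the highest RUNX1-IT1 ASO value. Means were 4.47 ± 0.175 and 2.09 ± 0.163 CPM (SD, n = 3 each). PSG7 fell by 0.82 ± 0.12 on the log2(CPM + 1) scale (SE, limma, adjusted p = 1.58e-05), and after rescaling to equal totals it stood at 0.31 ± 0.12 (limma, adjusted p = 0.0702).

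PSG11 stood at 1.79, 1.62 and 2.17 CPM in control ASO replicates 1, 2 and 3 and at 0.481, 0.645 and 0.469 CPM in the RUNX1-IT1 ASO replicates in the same order. The groups did not overlap, and the coefficient of variation was 15.0% among controls and 18.5% among the others. Means were 1.86 ± 0.28 and 0.532 ± 0.0983 CPM (SD, n = 3 each). PSG11 fell by 0.90 ± 0.13 on the log2(CPM + 1) scale (SE, limma, adjusted p = 1.55e-05).

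PSG8 was the scarcest of the 4 by CPM. It stood at 1.64, 1.27 and 1.51 CPM in control ASO replicates 1, 2 and 3, or 33, 22 and 32 steps. In the RUNX1-IT1 ASO replicates it stood in the same order at 0.321, 0.054 and 0.293 CPM, or 6, 1 and 5 steps. Taking a step as 1 read, replicate 2 of the RUNX1-IT1 ASO group was under the floor of 3 reads, 0.161 CPM in that library, and the groups did not overlap. From the reads implied in each group, 87 and 12, the ratio was 6.73-fold lower with an exact binomial 95% interval of 3.66 to 13.5, which covers counting error only and holds only if a step is 1 read. With RUNX1-IT1 ASO replicate 2 left out, the ratio of the CPM means went from 6.63-fold to 4.81-fold.

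PSG8 had a mean of 0.849 CPM over the 6 libraries, under the minimum of 1 CPM set for the test, and was not tested in that fit. With no such minimum, its change was -1.02 ± 0.14 on the log2(CPM + 1) scale (SE, limma, adjusted p = 6.67e-06).

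**Figure D3:**
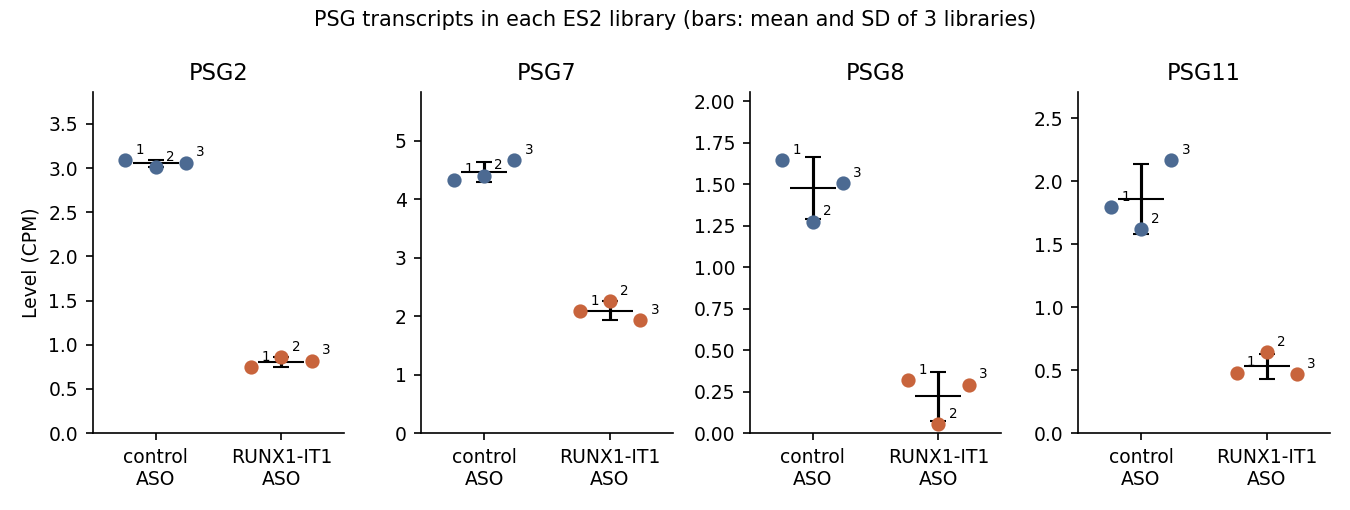
Level of each PSG gene in CPM (vertical axis, from 0, with its own scale per gene) in the 3 control ASO and the 3 RUNX1-IT1 ASO libraries; points are libraries with their replicate number, and the bar and whiskers give mean and SD. Every RUNX1-IT1 ASO point lies below every control ASO point for all 4 genes on the deposited scale. After rescaling to equal totals PSG7 turned to a positive change of 0.31 (limma, adjusted p = 0.0702), with the median tested entry at -0.06.

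All 3 tested PSG genes were called lower, where limma called 97.5% of the 489 tested entries lower and 2.04% higher at an adjusted p under 0.05. With no minimum level all 4 were called lower, against 97.3% of the 771 entries called lower and 2.46% called higher. The groups overlapped for none of the 4 genes, which held in the same direction for 95.7% of the 771 named entries. The members' calls are therefore at the background of the tables. The exact permutation test over libraries gave a two-sided p = 0.1 for each of the 4 genes, the smallest that 3 libraries against 3 allow. The median change of the 4 genes was -0.96 with no minimum level, and that of the 771 entries was -0.93.

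By fold, the 4 genes were spread across the range of the listed entries. PSG8 fell further than most entries, with 113 of the 768 ranked entries (14.7%) showing a larger decrease. PSG2 and PSG11 were near the middle, with 40.4 and 44.7% of entries further down, and the median fold of the entries was 3.24-fold lower. PSG7 was close to the smallest fold in the tables, with 90.8% of entries further down. Among the 435 named entries at 1 to 5 CPM in the control ASO libraries, a range that holds all 4 genes, the median was 3.45-fold lower and the middle 50% of entries ran from 2.53-fold to 5.37-fold. PSG2 and PSG11 lay inside that range and PSG7 short of it. PSG8 lay beyond it at 6.63-fold, but inside it at 4.81-fold without RUNX1-IT1 ASO replicate 2.

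Giving each library the same total over its listed entries moved the median change of all tested entries by 1.05, from -1.11 to -0.06, since nearly all of them fell. Relative to that total PSG2 was at -0.27 ± 0.13 (limma, adjusted p = 0.126) and PSG11 at -0.16 ± 0.14 (limma, adjusted p = 0.375). PSG8, with no minimum level, was at -0.50 ± 0.17 (limma, adjusted p = 0.0466), in a fit chosen after seeing the data. The share of all entries called in that fit was not computed, so this call has no background beside it. With equal totals and the minimum level kept, 24.1% of the 489 tested entries were called lower and 8.79% higher. None of the 3 PSG genes tested in that fit was called.

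**Figure D4:**
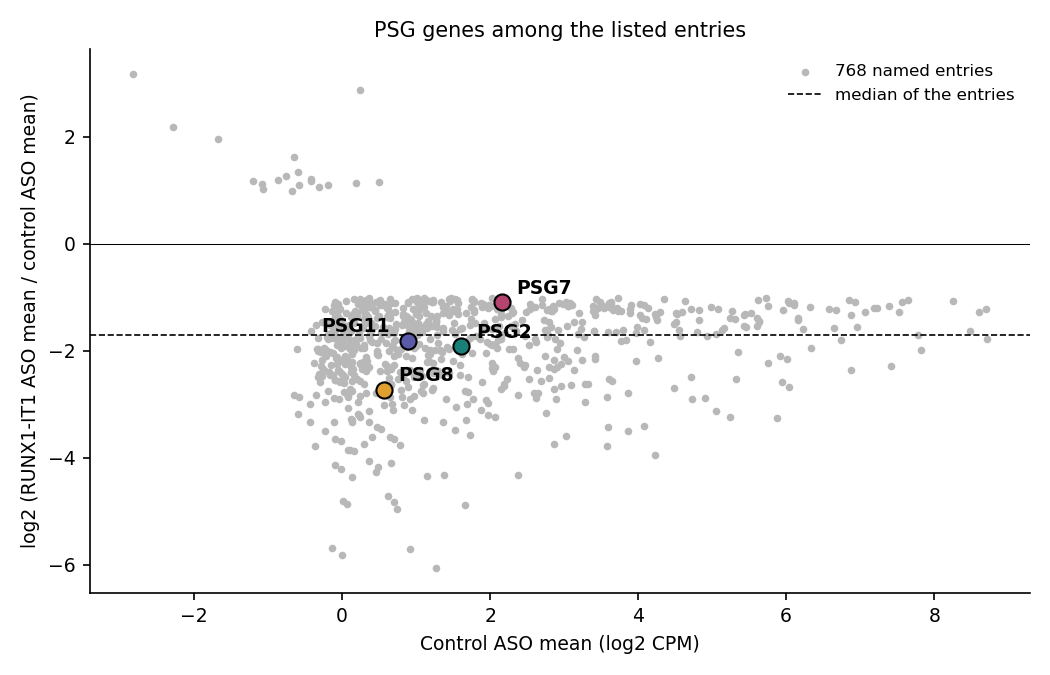
Each point is 1 of the 768 named entries with a mean above 0 in both groups, by its control ASO mean (horizontal axis, log2 CPM) and the log2 ratio of group means (vertical axis). The 4 labelled PSG genes lie at -1.09 (PSG7), -1.81 (PSG11), -1.92 (PSG2) and -2.73 (PSG8), around the dashed median of -1.70, and no entry lies near 0. After rescaling to equal totals PSG7 was at 0.31 on the log2(CPM + 1) scale (limma, adjusted p = 0.0702), with the median tested entry at -0.06.

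The makeup of the summed PSG level differed between the groups. PSG7 made up 39.9, 42.7 and 40.9% of the summed CPM in control ASO replicates 1, 2 and 3. With the RUNX1-IT1 ASO it made up 57.4, 59.2 and 55.0%, above every control value. PSG2 made up 28.2 ± 1.2% with the control ASO and 22.2 ± 1.41% with the RUNX1-IT1 ASO (SD, n = 3 each), without overlap. PSG8 went from 13.6 ± 1.42% to 6.19 ± 4.14%, with 1.41% in RUNX1-IT1 ASO replicate 2. PSG11 made up 17.1 ± 1.71% and 14.5 ± 2.09%, with groups that overlapped. Such shares were not computed for other sets of listed entries, so they have no background here.

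**Figure D5:**
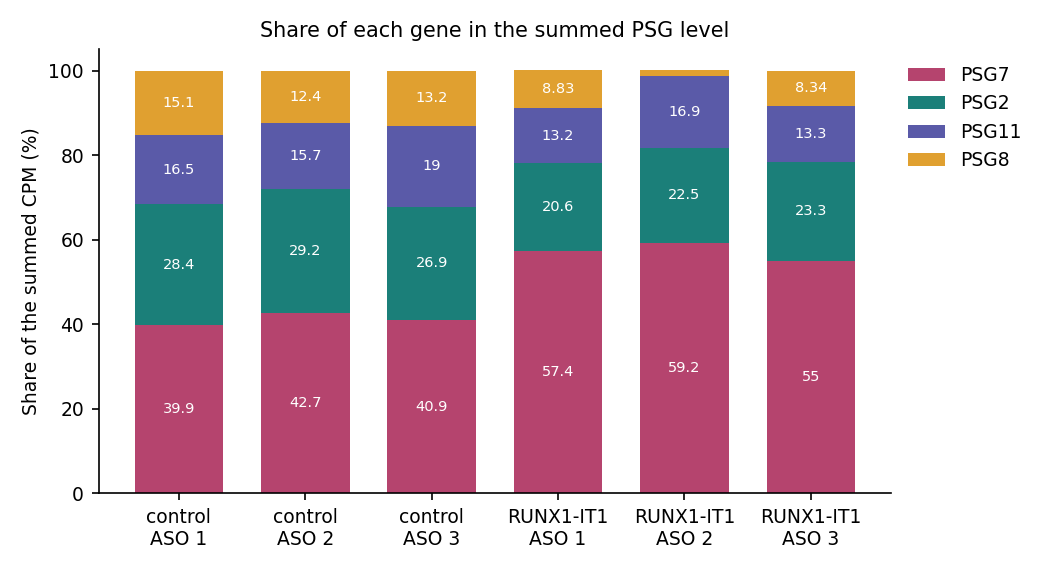
Share of each gene in the summed CPM of the 4 PSG genes (vertical axis, percent of the sum, from 0 to 100) in the 3 control ASO and the 3 RUNX1-IT1 ASO libraries. The lowest segment, PSG7, takes 39.9 to 42.7% with the control ASO and 55.0 to 59.2% with the RUNX1-IT1 ASO.

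Ratios between genes within a library do not depend on how libraries are scaled, so the 6 pairs were compared by group. The ratio of PSG2 to PSG7 was 0.71, 0.68 and 0.66 with the control ASO (replicates 1, 2 and 3) and 0.36, 0.38 and 0.42 with the RUNX1-IT1 ASO, a log2 difference of -0.82. The ratio of PSG7 to PSG11 was 2.42, 2.71 and 2.15 in the control ASO replicates and 4.34, 3.50 and 4.12 in the RUNX1-IT1 ASO replicates, a log2 difference of 0.72. In both, the groups did not overlap. PSG7 was already the higher gene in every control ASO library and exceeded the other by a larger factor under the RUNX1-IT1 ASO. The ratio of PSG7 to PSG8 also differed without overlap, by 2.00 on the log2 scale, or 1.11 without RUNX1-IT1 ASO replicate 2. That of PSG8 to PSG11 differed by -1.28 without overlap, or by -0.30 without that library. The ratio of PSG2 to PSG8 differed by 1.18 on the log2 scale with groups that overlapped, or by 0.30 without that library. How often ratios between other listed entries separate the groups was not tested. Listed entries vary in fold, with quartiles of their log2 ratios at -2.36 and -1.29. A lack of overlap is therefore not read as particular to the PSG genes.

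The ratio of PSG2 to PSG11 had the smallest difference of the 6. It was 1.72, 1.86 and 1.41 in the control ASO libraries and 1.56, 1.33 and 1.75 in the RUNX1-IT1 ASO replicates, so the groups overlapped, with a log2 difference of -0.11 and within-group SDs of 0.20. Over the 6 pairs the two-sided exact permutation test gave p = 0.1 (adjusted p = 0.15 over the pairs) for the 4 pairs without overlap. The same exact test gave p = 0.6 (adjusted p = 0.6) for PSG2 to PSG11 and p = 0.2 (adjusted p = 0.24) for PSG2 to PSG8. No pair could pass the threshold in this design, whose smallest p is 0.1.

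To compare levels between genes, CPM was divided by the length of the annotated transcript in kb. No adjustment was made for stretches shared with other genes. At 50 bases, the share found in no other gene ran from 59.8% for PSG8 to 81.2% for PSG7. In the control ASO libraries PSG7 at 2.01 ± 0.0784 and PSG2 at 1.99 ± 0.0258 CPM per kb did not differ beyond their spread (SD, n = 3 each). PSG11 at 1.18 ± 0.178 and PSG8 at 1.02 ± 0.13 CPM per kb lay lower and also did not differ beyond their spread. In every RUNX1-IT1 ASO library the order was PSG7, PSG2, PSG11 and PSG8, at means of 0.94 ± 0.073, 0.526 ± 0.0366, 0.338 ± 0.0624 and 0.155 ± 0.102 CPM per kb (SD, n = 3 each). CPM was also divided by all annotated exon bases of the gene. By that length PSG2 at 1.09 ± 0.0142 lay above PSG7 at 0.932 ± 0.0364 CPM per kb in each control ASO library. If a step is 1 read, these control values rest on 179 reads for PSG2 and 262 for PSG7. The order of these genes was not tested against counting error. Under the RUNX1-IT1 ASO the order of the 4 genes was the same as with transcript length.

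In the window reaching 1000000 bases beyond each end of the cluster, GENCODE has 123 genes, of which 8 are listed, the 4 PSG genes and 4 others. PSG8-AS1, a non-coding RNA gene on the plus strand at chr19:42821863-42826878, lies within the annotated span of PSG8 but shares no exon base with it. The PSG8 transcript used here for sequence and length, at chr19:42754233-42765679, does not reach PSG8-AS1. PSG8-AS1 stood at 3.44, 3.01 and 3.86 CPM in control ASO replicates 1, 2 and 3 and at 1.93, 1.61 and 1.35 CPM in the RUNX1-IT1 ASO replicates. PSG8-AS1 fell by 0.76 ± 0.14 on the log2(CPM + 1) scale (SE, limma, adjusted p = 0.000119), a 2.11-fold difference against 6.63-fold for PSG8, and turned to 0.30 (limma, adjusted p = 0.144) with equal totals. The sources used here do not say whether the counting used strand.

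The other listed neighbours lie 307 to 756 kb beyond the PSG9 end. PINLYP, which encodes an inhibitor of phospholipase A2, was 2.31-fold lower, and SRRM5, a serine- and arginine-rich repeat gene, was 2.84-fold lower. ZNF222, a zinc finger gene, was 3.00-fold lower, from 4.09 ± 0.149 to 1.37 ± 0.145 CPM (SD, n = 3 each). All 3 were called lower (limma, adjusted p = 0.000321, 0.000165 and 1.35e-06 for PINLYP, SRRM5 and ZNF222), as were 97.5% of the tested entries, and with equal totals PINLYP turned to 0.22 and none was called.

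Other genes of the family and of placental cells were rare in the tables. None of 12 CEACAM genes and none of 19 genes for PSG partners (integrins, syndecans, TGF-beta ligands and others) is listed. Of 57 trophoblast genes, which include the chorionic gonadotropin subunits and the syncytins, 1 is listed, PHLDA2, an imprinted gene that restrains placental growth. PHLDA2 stood at 48.6 ± 2.32 CPM with the control ASO and 18.7 ± 2.53 CPM with the RUNX1-IT1 ASO (SD, n = 3 each), and fell by 1.34 ± 0.10 on the log2(CPM + 1) scale (limma, adjusted p = 5.68e-08), though it was at 0.11 with equal totals. Of 14 transcription factor genes tied to PSG promoters, 1 is listed, KLF4, a Krüppel-like zinc finger factor. KLF4 went from 37.8 ± 4.34 to 14.6 ± 2.18 CPM (SD, n = 3 each), 2.60-fold lower, and was also at 0.11 with equal totals. Genes that are not listed were not analysed here, so these counts say nothing of their levels.

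The entries whose profile was most like the mean profile of the 4 PSG genes were sought among 486 other named entries that averaged 1 CPM or more, by Euclidean distance of log2(CPM + 0.1) centred on each gene's own mean, over the 6 libraries. LINC01024, a long non-coding RNA (distance 0.12), KLF10, a transcription factor induced early by TGF-beta (0.14), and DUSP10, a phosphatase of MAP kinases (0.19), came closest. The median candidate lay at 0.81. Of the members themselves, PSG2 lay at 0.30 and PSG11 at 0.50, while PSG7 at 0.87 and PSG8 at 1.31 lay farther from their own mean profile than the median candidate. The 3 entries were 3.62-fold (LINC01024), 3.26-fold (KLF10) and 3.28-fold (DUSP10) lower.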

How the data were processed

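RNA of 6 libraries was sequenced and, per the submitters' processing notes, handled with FastQC 0.11.9 and fastp 0.22.0 on build GRCh38. Not given in the sources used here are aligner, counter, annotation, strand setting and how entries were selected. Each library has 1 column of CPM deposited by the authors, a unit inferred from the numbers: all checked values under 6 CPM lay within 0.1 read of a whole multiple of 1 step. The 342 entries without a symbol were left out of the main test. In R 4.3.3, limma 3.58.1 was fitted with a mean-variance trend and group as the only term to log2(CPM + 1) of the 489 named entries that averaged 1 CPM or more over the libraries. It was tested on simulated data in which most entries did not change and the rest rose or fell equally often. These tables, where nearly all entries fell, are unlike that setting. A negative change means lower with the RUNX1-IT1 ASO, with Benjamini-Hochberg adjustment and a threshold of 0.05. Coding sequences were aligned with MAFFT 7.526. The named genes are the members, listed genes of the fixed lists, listed genes within 1000000 bases of the cluster and the 3 entries closest in profile. Members and lists were chosen with earlier results of these data known. Alternatives covered pseudocount, filter, scaling, trend, unnamed entries, replicate block and left-out libraries.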

Additional observations from a re-analysis of the deposited data

How the results depend on the processing

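Leaving out each library in turn, PSG2 ranged from -1.18 to -1.14, PSG7 from -0.86 to -0.79, PSG11 from -0.96 to -0.82 and PSG8 from -1.08 to -0.92 on the log2(CPM + 1) scale. The calls of PSG2, PSG7 and PSG11 held each time, with limma adjusted p at most 0.000251. The members called lower numbered 3 to 4, all tested entries called lower 436 to 513 and higher 7 to 12. The number of entries tested varied between these fits and was not recorded. With all 6 libraries 97.5% of the 489 tested entries were called lower, so the member calls are not read as particular to the PSG genes. The ratio of summed PSG levels was 0.328 to 0.345. PSG8 passed the minimum level only without RUNX1-IT1 ASO replicate 2 (-0.92, limma, adjusted p = 2.63e-05).

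With equal totals over the listed entries PSG2 (-0.27) and PSG11 (-0.16) lost their calls, PSG7 reversed to 0.31 and untested PSG8 was at -0.5. In that fit 0 members and 118 (24.1%) of the 489 tested entries were called lower, and 43 entries (8.79%) higher. The summed ratio was 0.953. By construction this scaling centres entries that nearly all fell. The mean of the 4 ratios was 0.293. With no minimum level 750 of the 771 entries (97.3%) were called lower and 19 higher, and PSG8 was called at -1.02 (limma, adjusted p = 6.67e-06). With a minimum of 2 CPM 1 member (PSG7) and 298 entries were called lower and 1 higher, since fewer entries were tested. With entries without a symbol added to those tested, 649 were called lower and 20 higher. The numbers tested at 2 CPM and with unnamed entries were not recorded, so these counts have no share beside them. PSG8 moved to -2.41 and -1.47 with pseudocounts of 0.1 and 0.5, where PSG2 stood at -1.80 and -1.44, PSG11 at -1.64 and -1.19 and PSG7 at -1.06 and -0.94, the last 3 genes called each time.

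Combinations with no minimum level were chosen for PSG8 after seeing the data. PSG8 was at -0.5 with equal totals (limma, adjusted p = 0.0466) and at -1.02 with a replicate block (limma, adjusted p = 2.34e-05). It was at -0.97, -1.08 and -1.01 without control ASO replicates 1, 2 and 3. Without RUNX1-IT1 ASO replicates 1, 2 and 3 it was at -1.08, -0.92 and -1.07. PSG8 was called each time, but the share of all entries called in these combinations was not computed. With no minimum level alone, 97.3% of the 771 entries were called lower, so these calls are not read as a result about PSG8. Deviations of same-numbered libraries correlated at -0.24, -0.10 and -0.02 over 489 entries, and those of unlike-numbered libraries at -0.13 to 0.18. With 3 libraries per group, these values cannot show whether libraries were prepared in pairs. With the replicate number as a block, 478 of the 489 tested entries were called lower and 10 higher. PSG2 stood at -1.16, PSG7 at -0.82 and PSG11 at -0.90, and no call changed for these 3 genes. The planned edgeR test on recovered reads was not run, since the smallest control ASO values lay at 2 to 5 steps. Depth limits PSG8 most, at 1 to 6 steps in each RUNX1-IT1 ASO library.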
